A study of Mus musculus with 46 samples.

Results

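Proximal tubular (PT) cells sorted from mouse kidneys after reversal of a ureteric obstruction (rUUO) were compared with PT cells from sham-operated kidneys, to describe which genes still differed from sham after the obstruction had been relieved. The comparison rests on 6 samples, rUUO replicates 2, 3 and 4 and sham replicates 1, 2 and 4, out of 10 PT samples and 44 samples in all whose columns could be assigned by name. The labels list a further PT sham sample, number 3, for which no column carries the name, and 2 columns that share the name of 1 endothelial (CD31+) UUO sample were left out. The mice were male wild-type C57BL/6 animals 8 to 12 weeks old, according to the methods of the study. All had surgery: a sham operation, unilateral ureteric obstruction (UUO), or UUO followed by reimplantation of the ureter, with kidneys taken 14 days after reversal. The time of obstruction before reversal is not given in the sources used here. UUO kidneys were taken 2 or 7 days after obstruction, but the sample labels do not say which. Values of the 4 PT UUO samples are therefore given only as an orientation. These samples also entered the filter on low values and the estimate of the spread used for rUUO against sham. The title of PT UUO replicate 2 holds both SHAM and UUO, but its treatment label is UUO, and that label set its group. PT cells were sorted with LTL, a lectin that binds the brush border of the proximal tubule, and the labels number the samples without naming the mice, so p-values measure the spread between these samples. Each value below is an FPKM value, in which fragments are divided by transcript length and by the size of the library, and values are listed in the order sham 1, 2 and 4 and rUUO 2, 3 and 4.

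The proximal tubule reclaims most of the filtered glucose, amino acids, phosphate and protein through transporters of its apical and basolateral membranes and through the megalin-cubilin endocytic system, and it makes glucose and oxidises fatty acids. When tubular cells are injured they lose part of this equipment and switch on secreted and surface proteins such as Lcn2, Clu and Havcr1, together with keratins, annexins and chemokines. Cells that regain their former state lose these markers again, whereas cells that keep them are commonly described as having failed to repair.

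The samples carried the markers of their label. Lrp2, which encodes megalin (chromosome 2, 69424340 to 69586065, minus strand, GRCm38), had 229, 213 and 189.7 FPKM in sham and 131, 116 and 131 FPKM in rUUO. Slc34a1, the main apical phosphate transporter (chromosome 13, 55398187 to 55415592, plus strand), had 1609.8, 1617 and 1145 FPKM in sham and 921, 802 and 692 FPKM in rUUO. Both genes were abundant in all 6 samples, and for both every rUUO sample lay under every sham sample. The injury markers went the other way. Lcn2, a secreted siderophore-binding protein (chromosome 2, 32384633 to 32388252, minus strand), had 1.39, 0.51 and 0.26 FPKM in sham and 29.1, 71.1 and 45.01 FPKM in rUUO. Clu, a secreted chaperone (chromosome 14, 65968483 to 65981547, plus strand), had 6.5, 7.39 and 3.85 FPKM in sham and 127, 131 and 154 FPKM in rUUO. The lowest rUUO sample was above the highest sham sample many times over for each of them.

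The files hold no counts, so the depth of each sample is unknown and no counting interval can be given. Depth relative to the median of all samples, read from the steps between low values of short single-exon genes, was 0.85 to 1.64 in sham and 0.93 to 1.28 in rUUO PT samples. Mitochondrially encoded genes took 71.7 ± 3.45% (SD, n = 3) of the FPKM sum in sham and 69.8 ± 1.6% (SD, n = 3) in rUUO, and none of the 15 of them that were tested passed the threshold by limma, with 2 at an unadjusted p under 0.05. Between 9502 and 9816 genes reached 1 FPKM in sham and between 10743 and 11131 in rUUO.

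Of 11416 genes tested, 852 differed between rUUO and sham PT cells at an adjusted p under 0.05 (7.46%; limma on log2(FPKM + 1), Benjamini-Hochberg adjustment), 744 of them higher (6.52%) and 108 lower (0.946%) in rUUO. The changes towards higher values were also the larger ones: 683 genes rose by more than 1 on the log2 scale and 210 by more than 2, whereas 56 fell by more than 1. Almost all calls had no overlap between the groups (741 of the 744 and 107 of the 108), against 20.6% of all tested genes with every rUUO sample above every sham sample and 6.41% with every rUUO sample below. The calls were made on the same values, so this separation is no separate support for them. The median log2 change of all genes was 0.21, and it depended on the scaling. With quantile normalization it was -0.07 and the calls were 508 higher (4.45% of the genes tested) and 232 lower (2.03%), so that 68.6% instead of 87.3% of the calls were higher. With FPKM rescaled without the mitochondrial genes it was 0.13, with 708 higher (6.2%) and 222 lower (1.94%), so that 76.1% of the calls were higher. With the spread estimated from sham and rUUO samples alone, 658 genes were called, 559 higher and 99 lower. Leaving out sham replicate 4 lowered the count of higher genes to 475 and of all calls to 556. The count of lower genes was 81 without that sample and between 36 (without sham replicate 1) and 63 (without rUUO replicate 2) when any other sham or rUUO sample was left out. Of the 744 genes called higher, 488 were also called higher after quantile normalization, and of the 108 called lower, 102 were also called lower. Fold changes below are on the log2(FPKM + 1) scale, on which low values show a smaller change than their true ratio, and are given as the change ± SE.

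**Figure D1:**
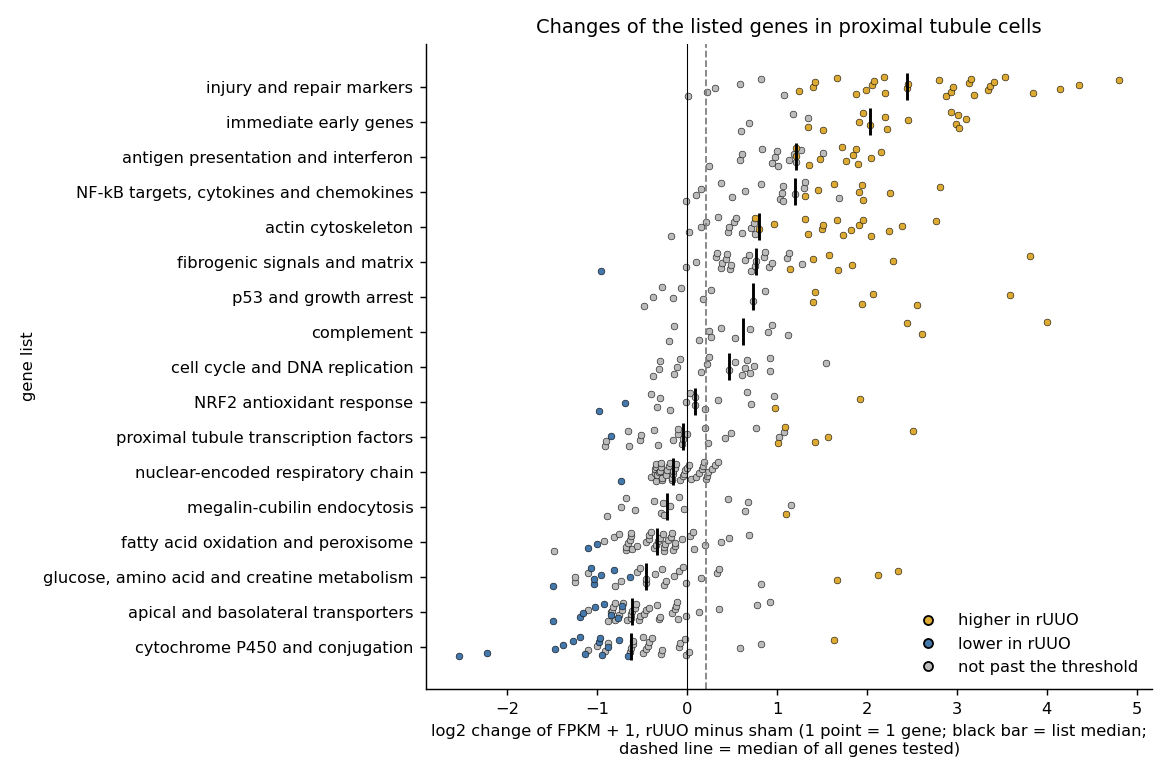
The log2 change between rUUO and sham PT cells is plotted for every tested member of 17 gene lists, with 1 point per gene, a black bar at the list's median and a dashed line at the median of all genes tested (0.21). Injury and repair markers and immediate early genes lie to the right (medians 2.44 and 2.03), and transporters and cytochrome P450 and conjugation genes to the left (medians -0.62 each). The lists were chosen with earlier results of these data known.

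Injury and repair genes had the highest median change of the 17 lists. The lists and their members were chosen with earlier results of these data known, so rankings and counts of lists are descriptions only. Of 33 tested members, 27 rose and 6 did not pass the test, beside 6.52% of all tested genes called higher. The median change of the list was 2.44 beside 0.21 for all genes. Lcn2 had the largest rise (log2 change 4.81 ± 0.43, adjusted p = 6.27e-06), Clu the next (log2 change 4.35 ± 0.23, adjusted p = 2.13e-07), and Havcr1, which encodes the phosphatidylserine receptor KIM-1, the third among the genes named (log2 change 4.15 ± 0.36, adjusted p = 5.81e-06). Havcr1 had 1.71, 1.39 and 0.41 FPKM in sham and 23.7, 41.6 and 47.2 FPKM in rUUO, so it was close to the floor of the table in sham and well expressed in every rUUO sample. Krt18, a keratin of simple epithelia, had 1.81, 0.38 and 0.15 FPKM in sham and 29.9, 21.9 and 17.7 FPKM in rUUO (log2 change 3.84 ± 0.36, adjusted p = 8.48e-06). Vcam1, an adhesion molecule of tubular cells that have not recovered, had 0.59, 0.33 and 0.97 FPKM in sham and 13.7, 11.7 and 14.1 FPKM in rUUO (log2 change 3.13 ± 0.39, adjusted p = 1.30e-04). Cd24a, a surface glycoprotein of immature and regenerating tubule cells, had 13.4, 14.9 and 8.93 FPKM in sham and 118, 161 and 181 FPKM in rUUO (log2 change 3.53 ± 0.22, adjusted p = 3.98e-07). No sham sample reached the lowest rUUO sample for any of these genes. Spp1 (osteopontin, a matrix protein and cytokine) was already abundant in sham, at 179, 195 and 147 FPKM, and reached 558, 755 and 774 FPKM in rUUO (log2 change 1.99 ± 0.18, adjusted p = 8.48e-06). S100a11, a calcium-binding protein, had 77.5, 80.4 and 61.6 FPKM in sham and 568, 527 and 526 FPKM in rUUO (log2 change 2.88 ± 0.17, adjusted p = 2.75e-07), which in FPKM was among the 5 largest rises of all genes called. The other 3 named for their FPKM rise besides Spp1 and S100a11 were Ly6e, a GPI-anchored surface protein (2.84 ± 0.22), B2m and the small nuclear RNA Rn7sk (1.29 ± 0.23). Keratins 7, 8 and 19, annexins 1, 2 and 3, S100a6, S100a10, Cp, Dcdc2a and Cd44 were among the members that rose, while Sox9, Prom1, Itgb6, Sema5a, Plin2 and Fgb did not pass. Lcn2 and Clu are also expressed by distal tubule and collecting duct cells, some of whose markers were also higher in rUUO (described further on), and the part of those cells in the result was not tested.

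**Figure D2:**
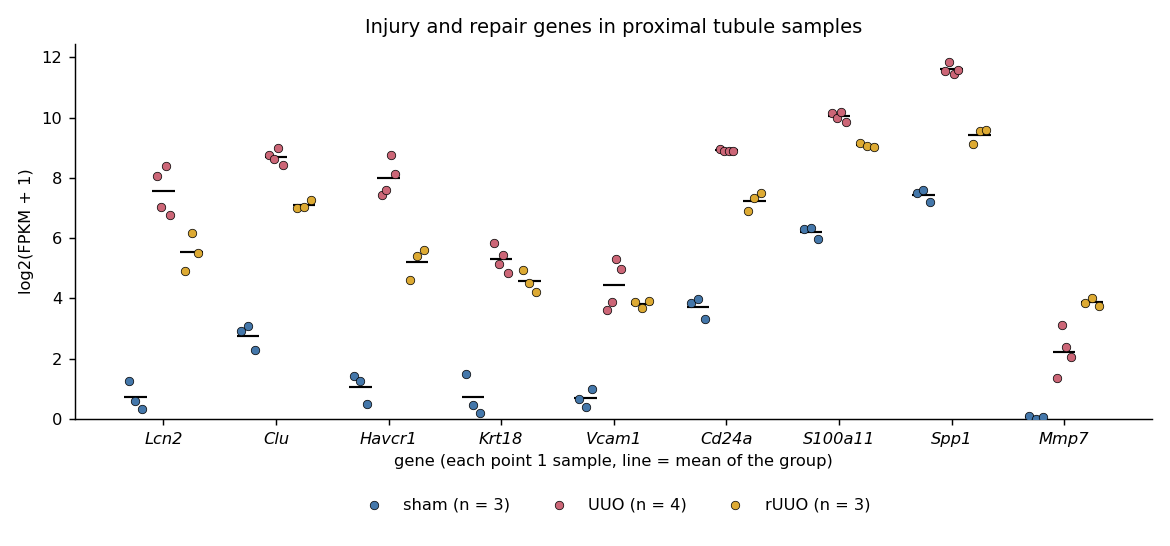
Each point is 1 PT sample (3 sham, 4 UUO and 3 rUUO) on the log2(FPKM + 1) scale, with the group mean as a line, for 9 injury and repair genes. All rUUO points lie above all sham points for each gene, and Mmp7 is the only one of the 9 plotted whose rUUO samples all lie above the UUO samples.

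Of the 9 plotted genes, 6 were lower in rUUO than in UUO (Lcn2, Clu, Havcr1, Cd24a, S100a11 and Spp1), Mmp7 was higher and Krt18 and Vcam1 did not pass. Lcn2 had 268, 129, 339 and 109 FPKM in the 4 UUO samples, and rUUO minus UUO was -2.04 ± 0.40, adjusted p = 0.0159. Havcr1 had 174, 194, 429 and 281 FPKM in UUO (rUUO minus UUO -2.78 ± 0.34, adjusted p = 9.47e-04). Spp1 had 2967, 3697, 2766 and 3065 FPKM (-2.17 ± 0.17, adjusted p = 4.54e-05). Cd24a likewise fell from UUO to rUUO by 1.67 on the log2 scale (adjusted p = 9.47e-04). Clu differed by -1.60 ± 0.22, adjusted p = 0.00167, and S100a11 by -0.97 ± 0.16, adjusted p = 0.00559. All 6 were above sham and below UUO in rUUO. Mmp7, a secreted matrix protease of tubular epithelium, differed from them: it had 0.06, 0 and 0.05 FPKM in sham and 13.3, 15.1 and 12.6 FPKM in rUUO, with 1.55, 7.63, 4.25 and 3.18 FPKM in UUO, and was higher in rUUO than in UUO (1.64 ± 0.36, adjusted p = 0.0254). Krt18, Vcam1, C3 and Cdkn1a had rUUO values whose difference from UUO did not pass (adjusted p = 0.208, 0.341, 0.307 and 0.172, by limma). Over all genes, 437 differed between rUUO and UUO (3.83%), 360 of them lower (3.15%) and 77 higher (0.674%) in rUUO. Between UUO and sham 3747 differed (32.8%), 3186 of them higher (27.9%) and 561 lower (4.91%). The last comparison shares its sham samples with that of rUUO, so the counts are set side by side only.

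Among the 15 largest rises that met the naming rule, several genes are not on the injury and repair list. Foxi1, the transcription factor that specifies intercalated cells of the collecting duct, had 3.43, 1.89 and 1.51 FPKM in sham and 56.97, 48.9 and 45.5 FPKM in rUUO (log2 change 4.01 ± 0.23, adjusted p = 2.75e-07). Atp6v1g3 and Atp6v0d2, subunits of the proton pump of those cells, had log2 changes of 4.005 ± 0.27 and 3.67 ± 0.24 (adjusted p = 7.30e-07 and 5.52e-07). All 3 were low in every sham sample and at 41.1 FPKM or more in every rUUO sample. Wfdc2, a secreted protease inhibitor of epithelia, rose by 4.12 ± 0.37, Ckmt1, a mitochondrial creatine kinase, by 4.09 ± 0.32, and Guca2a, which encodes guanylin, by 3.98 ± 0.41. Plet1 (4.07 ± 0.27), Spink8 (4.06 ± 0.38) and Sytl2 (3.66 ± 0.27) complete the list with C3, Krt18, Mmp7, Lcn2, Clu and Havcr1. Adjusted p-values of these 15 genes were 1.87e-05 or lower, and each stayed past the threshold in all 17 alternatives.

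Some markers of the distal nephron were also higher in rUUO and others did not pass, beside 6.52% of all tested genes called higher. Of 16 tested markers of thick limb, distal tubule and collecting duct, 7 were higher in rUUO (Umod, Scnn1b, Scnn1g, Atp6v1g3, Slc4a1, Foxi1 and Hsd11b2), among them 2 of the genes just named, and 9 did not pass. The latter include Slc12a3, Kcnj1 and Aqp2, with log2 changes of -0.32, 0.04 and 0.14. The summed FPKM of the list was 71.2 to 77.3 in sham, 266 to 368 in rUUO and 622 to 749 in UUO samples. Without Foxi1 and Atp6v1g3 it was 61.8 to 71.3 in sham and 119 to 238 in rUUO. A longer list of 18 intercalated cell genes was drawn up after their values were seen. Of these, 17 were higher and Slc26a7 did not pass, with a median change of 3.01. Their summed FPKM was 49.04 to 68.8 in sham and 553 to 756 in rUUO, and 1409 to 1927 in UUO. Slc26a4 (pendrin), the chloride-bicarbonate exchanger of one intercalated cell type, had 0.79, 0.38 and 1.22 FPKM in sham and 11.6, 14.9 and 10.2 FPKM in rUUO. Slc4a1, the basolateral anion exchanger of the other type, had 12.3, 12.8 and 6.34 FPKM in sham and 42.1, 23.3 and 38.6 FPKM in rUUO. Kit had 2.29, 2.66 and 0.5 FPKM in sham and 26.5, 17.2 and 25.6 FPKM in rUUO. The groups did not overlap for any of the 3. Of 9 tested principal cell genes, a list also drawn up after the values were seen, 5 were higher and 0 lower. Scnn1b, Scnn1g, Hsd11b2, Gata3 and St6gal1 rose, while Aqp2, Aqp3, Fxyd4 and Elf5 did not pass. The summed FPKM of the whole list of 11 was 19.6 to 32.1 in sham and 47.7 to 81.5 in rUUO. Scnn1b, a subunit of the epithelial sodium channel, had 0.69, 0.12 and 0.83 FPKM in sham and 6.41, 3.98 and 7.47 FPKM in rUUO. The water channel Aqp2 had 1.83, 2.99 and 1.5 FPKM in sham and 3.9, 1.21 and 2.48 FPKM in rUUO, with overlapping groups. Umod, made by the thick limb, had 17.4, 15.2 and 19.6 FPKM in sham and 53.5, 42.6 and 123 FPKM in rUUO. Slc12a1, the cotransporter of the same segment, had 1.99, 2.14 and 2.43 FPKM in sham and 3.19, 2.15 and 12.3 FPKM in rUUO, so rUUO replicate 4 held the highest value of both. Of 8 thick limb genes, a list also drawn up after the values were seen, Umod and Ptger3 were higher and 6 did not pass. Among those 6, Cldn10 had 38.2, 38.9 and 39.3 FPKM in sham and 23.9, 27.4 and 21.3 FPKM in rUUO with every rUUO sample below sham (log2 change -0.67), and Egf changed by -0.699. In each sham sample Cldn10 was the largest part of the sum of these 8 genes, which was 64.98 to 69.25 FPKM. Which cells Cldn10 came from was not tested. Scnn1g and Hsd11b2 were called but lost the call when single replicates were left out, Scnn1g in 9 of 17 alternatives (adjusted p = 0.0108 to 0.14 in all), including those without rUUO 2, 3 or 4 or sham 1, 2 or 4 (adjusted p = 0.0506 to 0.0997) and Hsd11b2 in 10 of 17 alternatives (adjusted p = 0.0227 to 0.157 in all), including those without rUUO 2 or 4 or sham 2 or 4 (adjusted p = 0.0648 to 0.14). In bulk samples a larger share of such cells and more RNA of these genes per cell cannot be told apart.

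**Figure D3:**
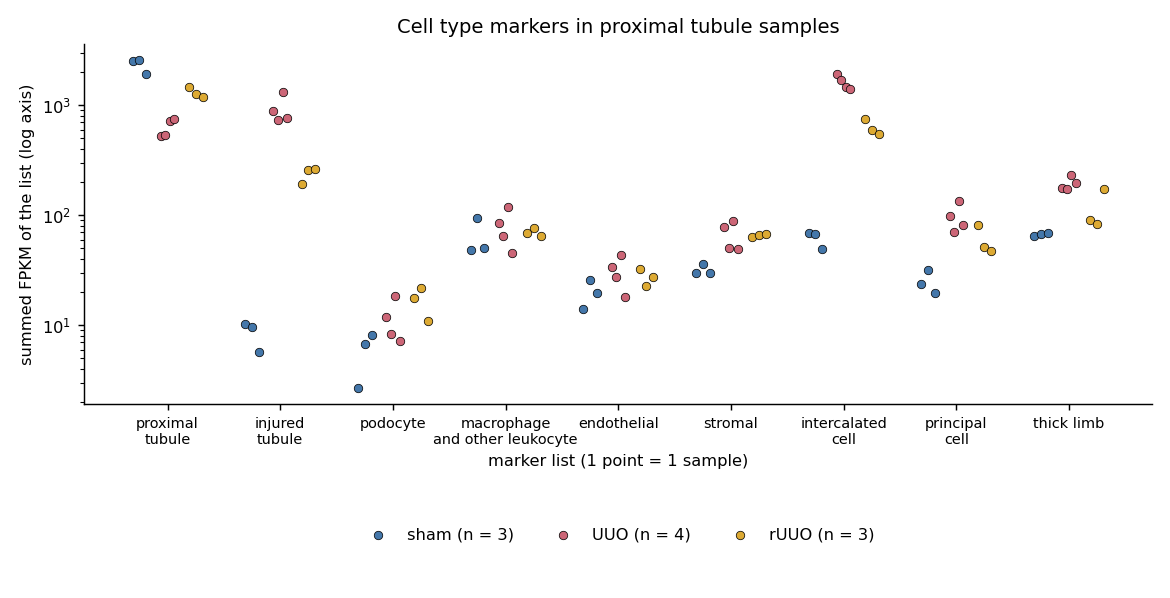
The summed FPKM of each marker list is plotted on a log axis for every PT sample, with 1 point per sample and the groups in colour. Intercalated cell genes lie at 49.04 to 68.8 in sham and 553 to 756 in rUUO, whereas leukocyte markers overlap between the groups.

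Markers of leukocytes and endothelial cells did not pass. None of 8 tested leukocyte markers passed by limma, with 0 at an unadjusted p under 0.05, and their summed FPKM was 47.9 to 95.2 in sham and 64.5 to 76.2 in rUUO. The defining marker Ptprc (CD45) had 0.5, 0.89 and 1.05 FPKM in sham and 0.94, 1.47 and 0.99 FPKM in rUUO, and Cd3g was at 0 in all 6 samples. None of 8 endothelial markers passed, with 1 at an unadjusted p under 0.05, and the sums were 13.9 to 25.6 and 22.8 to 32.3. Of 9 stromal markers 2 rose, Acta2 (log2 change 2.52 ± 0.34, adjusted p = 2.15e-04) and Rgs5 (log2 change 2.08 ± 0.36, adjusted p = 0.00231), both of contractile perivascular cells, and the stromal sum was 29.6 to 36.03 in sham and 63.8 to 67.05 in rUUO. Among all tested genes 6.52% were called higher. The sum of the podocyte markers was 2.69 to 8.22 in sham and 10.8 to 21.6 in rUUO.

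Inflammatory signals and their targets rose in part. Of 23 tested NF-kB targets, cytokines and chemokines, 8 rose and 15 did not pass (median change 1.203). The share called higher over all tested genes was 6.52%. Cxcl1, a neutrophil chemoattractant, had 0.46, 0.36 and 0.12 FPKM in sham and 6.64, 6.34 and 3.3 FPKM in rUUO (log2 change 2.25 ± 0.35, adjusted p = 8.56e-04). Ccl2, which recruits monocytes, had 0.21, 0.3 and 0.23 FPKM in sham and 3.96, 4.9 and 2.87 FPKM in rUUO (log2 change 1.96 ± 0.34, adjusted p = 0.00208). Il34, a ligand of the macrophage growth factor receptor Csf1r, had 1.36, 0.19 and 0.77 FPKM in sham and 22.04, 9.94 and 5.81 FPKM in rUUO (log2 change 2.81 ± 0.40, adjusted p = 4.11e-04). Both chemokines stayed under 7 FPKM, and Il34 varied over a wide range among the rUUO samples. Icam1, a leukocyte adhesion molecule, rose by 1.95 ± 0.32 (adjusted p = 0.00134) and Bcl3, a nuclear cofactor of NF-kB, by 1.91 ± 0.35 (adjusted p = 0.00318). Nfkb1, Nfkb2 and Nfkbiz were the other members called. The most abundant members, Cxcl16 and Cxcl10, did not pass: Cxcl10 had 1.36, 9.6 and 2.66 FPKM in sham and 22.9, 5.57 and 7.64 FPKM in rUUO, with overlapping groups.

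Of 14 complement genes, 3 rose, beside 6.52% of all tested genes called higher. C3, the central component, had 4.92, 4.89 and 2.96 FPKM in sham and 67.3, 75.4 and 108 FPKM in rUUO (log2 change 4.001 ± 0.35, adjusted p = 5.81e-06), Cfi, the protease that inactivates it, had 2.57, 3.09 and 1.03 FPKM in sham and 11.98, 23.2 and 20.5 FPKM in rUUO (log2 change 2.61 ± 0.32, adjusted p = 1.10e-04). C4b rose by 2.45 ± 0.28 (adjusted p = 5.53e-05), although reads of C4b can be shared with its close copy C4a. Cfb, which encodes factor B of the alternative pathway, had 139, 117 and 101 FPKM in sham and 121, 101 and 87.9 FPKM in rUUO and did not pass. The antigen presentation and interferon list had 11 of 24 members higher and 13 not past the threshold (median 1.21). B2m, the light chain of class I molecules, had 207, 196 and 167 FPKM in sham and 448, 393 and 477 FPKM in rUUO (log2 change 1.21 ± 0.22, adjusted p = 0.00314). The class I gene H2-K1 had 61.6, 87.6 and 38.3 FPKM in sham and 253, 193 and 202 FPKM in rUUO (log2 change 1.84 ± 0.28, adjusted p = 7.34e-04). Class II genes rose too: Cd74, the invariant chain, had 50.9, 68.2 and 41.5 FPKM in sham and 262, 170.4 and 178 FPKM in rUUO (log2 change 1.91 ± 0.28, adjusted p = 6.15e-04). H2-Ab1 had 29.97, 39.1 and 22.4 FPKM in sham and 141, 107 and 92.3 FPKM in rUUO (log2 change 1.88 ± 0.28, adjusted p = 6.74e-04). All rUUO samples were above all sham samples for these 4 genes. The immunoproteasome subunit Psmb9 rose by 2.16 ± 0.32 (adjusted p = 5.40e-04). The transcription factor Irf1 rose by 2.05 ± 0.46 (adjusted p = 0.0135), a call that was lost in 3 of 17 alternatives (adjusted p = 8.29e-06 to 0.0941 in all), including those without rUUO 3 or sham 1 (adjusted p = 0.0605 to 0.062). Class II genes are also expressed by antigen-presenting leukocytes, whose summed markers, given above, overlapped between the groups, and the part of those cells was not tested.

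Immediate early genes had the second highest list median, 2.03 beside 0.21 for all genes. Of 17 tested members, 13 were higher and 4 did not pass, beside 6.52% of all tested genes called higher. Fos had 2.17, 2.14 and 2.26 FPKM in sham and 34.7, 18.4 and 28.7 FPKM in rUUO (log2 change 3.101 ± 0.29, adjusted p = 8.48e-06). Jun had 3.26, 3.21 and 2.2 FPKM in sham and 27.7, 26.5 and 35.9 FPKM in rUUO (log2 change 2.99 ± 0.26, adjusted p = 5.81e-06). Atf3, a stress-induced repressor of the same family of factors, had 0.29, 0.48 and 0.38 FPKM in sham and 11.8, 10.1 and 8.91 FPKM in rUUO (log2 change 3.02 ± 0.28, adjusted p = 7.73e-06). For all 3 the sham values were close together and the lowest rUUO sample was far above them. Egr1 rose by 2.94 ± 0.26 (adjusted p = 6.68e-06), Ier3 by 3.02 ± 0.32 (adjusted p = 2.55e-05) and Zfp36, which destabilises cytokine transcripts, by 1.92 ± 0.23 (adjusted p = 9.61e-05). Fos averaged 23.7 ± 5.95 FPKM (SD, n = 4) in UUO against 27.2 ± 8.24 FPKM (SD, n = 3) after reversal, a difference that did not pass (0.18 ± 0.27, adjusted p = 0.728).

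Of 15 tested members of the p53 and growth arrest list, 6 rose and 9 did not pass, beside 6.52% of all tested genes called higher. Cdkn1a, the cyclin-dependent kinase inhibitor p21, had 4.49, 1.43 and 2.28 FPKM in sham and 48.7, 29.4 and 50.1 FPKM in rUUO (log2 change 3.59 ± 0.32, adjusted p = 6.27e-06). Btg2, an antiproliferative target of p53, had 1.49, 2.1 and 1.01 FPKM in sham and 13.1, 12.3 and 15.6 FPKM in rUUO (log2 change 2.55 ± 0.26, adjusted p = 1.82e-05). Gadd45a, a DNA damage-inducible gene, had 3.42, 2.75 and 1.34 FPKM in sham and 12.9, 8.99 and 19.8 FPKM in rUUO (log2 change 2.07 ± 0.31, adjusted p = 6.74e-04). Gdf15, a stress-induced cytokine, rose by 1.94 ± 0.41 (adjusted p = 0.00852), with 8.38, 2.29 and 7.3 FPKM in the rUUO samples, and lost its call with no filter on low values (adjusted p = 0.0586). Trp53 was called as well, and Gadd45b was called but not in 7 of 17 alternatives (adjusted p = 0.00454 to 0.0916 in all), including those without rUUO 2 or 3 or sham 1 or 2 (adjusted p = 0.0583 to 0.0912). The p53 targets Mdm2 and Ccng1 did not pass, at log2 changes of -0.27 and 0.18. None of 19 tested cell cycle and DNA replication genes passed by limma, beside 7.46% of all genes, with 3 at an unadjusted p under 0.05 and none after quantile normalization. Pcna had 17.6, 9.45 and 11.6 FPKM in sham and 22.2, 21.4 and 13.1 FPKM in rUUO. Ccnd1 had 33.5, 35.6 and 29.8 FPKM in sham and 32.2, 20.7 and 27.6 FPKM in rUUO, both with overlapping groups.

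Of 30 fibrogenic signal and matrix genes, 7 rose, 1 fell and 22 did not pass, beside 6.52% of all tested genes called higher and 0.946% lower. Besides Mmp7 (log2 change 3.82 ± 0.38, adjusted p = 1.67e-05), the genes that rose included Col18a1, a basement membrane collagen (log2 change 1.84 ± 0.24, adjusted p = 1.85e-04), and the Notch ligand Jag1 (log2 change 1.68 ± 0.29, adjusted p = 0.00193). Pdgfa, a growth factor for stromal cells, had 1.69, 0.42 and 2.57 FPKM in sham and 7.77, 5.06 and 5.77 FPKM in rUUO. Its call was lost in 5 of 17 alternatives (adjusted p = 4.75e-04 to 0.063 in all), including those without rUUO 2 or sham 2 (adjusted p = 0.0552 to 0.063). The interstitial collagens Col1a1 and Col3a1, Tgfb1 and Fn1 did not pass (log2 changes 0.39, 0.45, 0.49 and 0.95). Timp3, an inhibitor of matrix proteases that is abundant in the sham tubule, fell from 521, 585 and 485 FPKM to 276, 273 and 270 FPKM (log2 change -0.95 ± 0.17, adjusted p = 0.00252), with the rUUO samples close together. Of 29 actin cytoskeleton genes, 16 rose and 13 did not pass (median 0.80). Tmsb4x, which binds actin monomers, had 26.6, 25.9 and 24.3 FPKM in sham and 112, 109 and 105 FPKM in rUUO (log2 change 2.05 ± 0.25, adjusted p = 1.03e-04). Tuba1a, an alpha-tubulin carried on the same list, rose by 2.76 ± 0.26, Flna by 2.39 ± 0.34, Capg by 2.24 ± 0.39 and Myl9, a smooth muscle myosin light chain, by 1.96 ± 0.32 (adjusted p = 0.00119). Myl9 and Acta2 are also expressed by contractile stromal cells. The stromal sum, higher in rUUO as given above, contains Acta2 itself, and only Acta2 and Rgs5 of the 9 tested stromal markers were called. The part of contractile stromal cells was not tested. Actb, the most abundant member, had 219.7, 274 and 159.7 FPKM in sham and 357, 326 and 367 FPKM in rUUO and did not pass (log2 change 0.72 ± 0.23, adjusted p = 0.0749).

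Promoters of the called genes were read for 3 motifs that were chosen with results of these data known: the NF-kB consensus, AP-1 (TGANTCA) and HNF1 (GTTAATNAT), each on both strands. The windows are RefSeq promoters on GRCm38.p6 from 250 bases before to 50 bases after the first listed start, and 8566 of the 11416 tested genes had one, 566 of those called higher and 77 of those called lower. The NF-kB consensus was in 76 of 566 promoters of genes called higher (13.4%), 11.7% of those called lower, 9.55% of those tested and not called and 8.18% of all 27025 promoters. AP-1 was in 6.71%, 9.09%, 4.59% and 7.93% of the same groups. HNF1 was in 6 of 566 promoters of genes called higher (1.06%), 4 of 77 of those called lower (5.19%), 0.517% of those not called and 0.836% of all. These shares are descriptions, and a match is not a binding site. Examples are shown for a chemokine, 2 antigen presentation genes, a keratin, a matrix protease and a calcium-binding protein that rose and for a gluconeogenic gene that fell, each 30 bases written 5′ to 3′ on the strand of the gene with the matched motif in capitals.
Cxcl1, chr5:90891164-90891193, plus strand: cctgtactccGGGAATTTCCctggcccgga
B2m, chr2:122147551-122147580, plus strand: actgaaaatgGGAAAGTCCCtttgtaacct
H2-K1, chr17:34000439-34000468, minus strand: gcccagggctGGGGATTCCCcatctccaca
Krt18, chr15:102028159-102028188, plus strand: ggcctgctggGGGAGGTCCCtacctcctcc
Mmp7, chr9:7692016-7692045, plus strand: aagtgtgcaaaTGAGTCAcctatttccaca
S100a11, chr3:93520447-93520476, plus strand: cgggcacagccTGAGTCAggctgaggggcg
G6pc, chr11:101367485-101367514, plus strand: gtgtgcccaaGTTAATAATtggctctgcca
The first 4 hold the NF-kB consensus, Mmp7 and S100a11 hold AP-1, and G6pc holds HNF1. The first base of the match lies 71 bases before the start in Cxcl1, 126 in B2m, 111 in H2-K1, 47 in Krt18, 63 in Mmp7, 38 in S100a11 and 221 in G6pc. Cxcl1 and H2-K1 each hold a second match that overlaps the first, shifted by 1 base, and S100a11 holds another AP-1 match farther from the start.

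Several transport genes of the proximal tubule were lower in rUUO than in sham. Of 42 tested apical and basolateral transporters, 8 fell and 34 did not pass, beside 0.946% of all tested genes called lower. Their median change was -0.62 beside 0.21 for all genes, and only 3 of the 42 lay above that overall median. Slc6a19, the apical neutral amino acid transporter, had 80.7, 71.8 and 71.8 FPKM in sham and 29.9, 26.8 and 21.7 FPKM in rUUO (log2 change -1.49 ± 0.24, adjusted p = 9.58e-04). Slc2a2, the basolateral glucose transporter GLUT2, had 61.6, 38.3 and 57.9 FPKM in sham and 19.1, 25.1 and 22.3 FPKM in rUUO (log2 change -1.19 ± 0.25, adjusted p = 0.00781). Every rUUO sample was below every sham sample for both, and both calls held in all 17 alternatives. Slc34a1, whose values are given above, changed by -0.85 ± 0.18 (adjusted p = 0.01), a call that was lost in 5 of 17 alternatives (adjusted p = 6.56e-04 to 0.221 in all), including those without rUUO 4 or sham 1 (adjusted p = 0.052 to 0.0558). Slc22a8, the organic anion transporter OAT3, had 149.9, 132 and 112 FPKM in sham and 61.8, 72.8 and 42.7 FPKM in rUUO (log2 change -1.16 ± 0.25, adjusted p = 0.01), and lost its call in 2 of 17 alternatives (adjusted p = 0.00359 to 0.0546 in all), including those without sham 1 (adjusted p = 0.0529). Slc5a2, which encodes the glucose transporter SGLT2, had 274, 306 and 204 FPKM in sham and 168, 133 and 111 FPKM in rUUO (log2 change -0.92 ± 0.21, adjusted p = 0.0158), with the call lost in 7 of 17 alternatives (adjusted p = 0.0016 to 0.288 in all), including those without rUUO 3 or 4 or sham 1 or 2 (adjusted p = 0.05 to 0.0712). Slc5a12, a lactate transporter, changed by -1.02 ± 0.29 (adjusted p = 0.0459) and did not pass in 10 of 17 alternatives (adjusted p = 0.0226 to 0.213 in all), including those without rUUO 2, 3 or 4 or sham 1, 2 or 4 (adjusted p = 0.05 to 0.156). Slc7a8 and Slc4a4 were the other members called. Components of the basolateral sodium pump did not pass: Fxyd2 had 1175, 1107 and 809 FPKM in sham and 1024, 906 and 795 FPKM in rUUO, and Atp1b1 changed by -0.01. After quantile normalization 10 transporters fell, and 12 did after rescaling without mitochondrial genes.

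**Figure D4:**
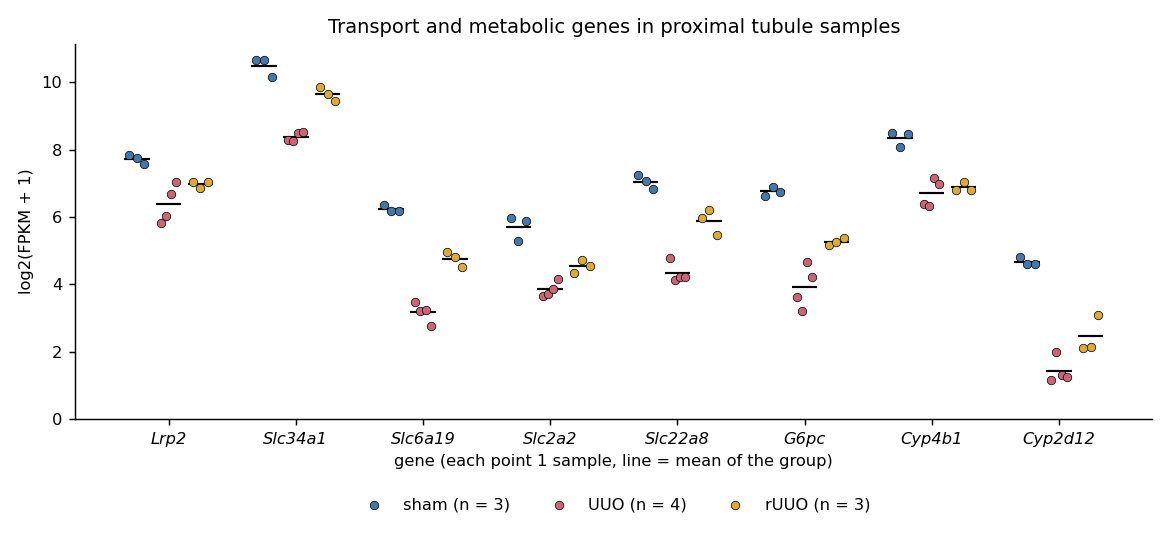
FPKM values of 8 transport and metabolic genes are plotted as log2(FPKM + 1) for each PT sample, with the group mean as a line. All rUUO points lie below all sham points for each gene, and for Slc34a1, Slc6a19, Slc2a2, Slc22a8, G6pc and Cyp2d12 they also lie above all UUO points.

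Of the 16 genes of megalin-cubilin endocytosis 1 was called, a share near that of all genes tested (7.46%). Lrp2 changed by -0.74 ± 0.27 and did not pass (adjusted p = 0.121, and 0.0338 to 0.329 over its 17 alternatives), although its groups did not overlap. Cubn, the partner receptor of megalin, had 60.2, 52.5 and 49.3 FPKM in sham and 26.7, 27.7 and 31.6 FPKM in rUUO, which also did not pass (adjusted p = 0.0688). The called gene, Clcn5, the endosomal chloride-proton exchanger, was higher in rUUO, with 14.7, 15.04 and 12.96 FPKM in sham and 33.1, 27.98 and 33.8 FPKM in rUUO (log2 change 1.096 ± 0.22, adjusted p = 0.00547). The adaptor Dab2 had 221, 198 and 197 FPKM in sham and 175, 154 and 184 FPKM in rUUO and did not pass. After quantile normalization 1 gene of the list was called lower, and 2 were after rescaling without mitochondrial genes.

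Enzymes of glucose and amino acid metabolism changed in both directions. In the glucose, amino acid and creatine list, 7 of 31 fell, 3 rose and 21 did not pass. Among all tested genes 0.946% were called lower and 6.52% higher. G6pc, which releases free glucose at the end of gluconeogenesis, had 97.7, 118 and 107 FPKM in sham and 35.1, 37.3 and 40.2 FPKM in rUUO (log2 change -1.49 ± 0.31, adjusted p = 0.00745). Its groups did not overlap, and its call was lost with no filter on low values (adjusted p = 0.053). The 3 that rose belong to glycolysis: Pkm with 1.81, 5.01 and 2.74 FPKM in sham and 18.6, 21.5 and 17.9 FPKM in rUUO (log2 change 2.35 ± 0.29, adjusted p = 1.10e-04), Hk1 (log2 change 2.13 ± 0.28, adjusted p = 1.83e-04) and Pfkp (log2 change 1.67 ± 0.33, adjusted p = 0.00555). Ass1, Gpx3, Kap and Slc34a1 were among the 5 largest falls in FPKM of all genes called. Gpx3, the secreted glutathione peroxidase, had 12909, 12939 and 9147 FPKM in sham and 7568, 7989.8 and 5968 FPKM in rUUO (log2 change -0.69 ± 0.19, adjusted p = 0.0385). Leaving out single replicates ended the call of each of these 4 genes. Gpx3 did not pass in 11 of 17 alternatives (adjusted p = 0.00895 to 0.381 in all), including those without rUUO 2, 3 or 4 or sham 1 or 2 or UUO 2 (adjusted p = 0.0547 to 0.155). Ass1 (log2 change -0.81 ± 0.19, adjusted p = 0.0198) did not pass in 8 of 17 alternatives (adjusted p = 0.00474 to 0.138 in all), including those without rUUO 4 or sham 1 or 2 (adjusted p = 0.083 to 0.0855). Kap (log2 change -0.75 ± 0.20, adjusted p = 0.0313) did not pass in 8 of 17 alternatives (adjusted p = 0.0151 to 0.412 in all), including those without rUUO 2 or 3 or sham 1 or 4 (adjusted p = 0.0768 to 0.115).

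The cytochrome P450 and conjugation list had the most falls, 13 of 37, with 1 rise and 23 members not past the threshold (median -0.62). The shares over all tested genes were 0.946% lower and 6.52% higher. Cyp2d12 had 27.2, 23.3 and 23.2 FPKM in sham and 3.35, 3.38 and 7.57 FPKM in rUUO (log2 change -2.22 ± 0.33, adjusted p = 5.97e-04). Cyp4b1, a fatty acid and xenobiotic hydroxylase, had 359, 272 and 351 FPKM in sham and 111, 130.4 and 111 FPKM in rUUO (log2 change -1.46 ± 0.23, adjusted p = 0.00109). Every rUUO sample was below every sham sample for both, and both calls held in all 17 alternatives. Ugt1a10, a glucuronosyltransferase whose later exons are shared with the other Ugt1a genes, had the largest fall by the naming rule, with 4.91, 18.9 and 10.9 FPKM in sham and 2.84, 0.17 and 0.61 FPKM in rUUO (log2 change -2.53 ± 0.66, adjusted p = 0.0321), but it lost its call in 6 of 17 alternatives (adjusted p = 1.43e-05 to 0.185 in all), including those without rUUO 3 or 4 or sham 2 or 4 (adjusted p = 0.1 to 0.125). Cyp24a1, which inactivates vitamin D, had 42.01, 45.4 and 18.99 FPKM in sham and 8.46, 19.9 and 10.5 FPKM in rUUO, with sham replicate 4 under the highest rUUO sample. Its call was lost in 6 of 17 alternatives (adjusted p = 0.00654 to 0.12 in all), including those without rUUO 2 or 4 or sham 1 or 2 (adjusted p = 0.0931 to 0.114). The 1 rise, Ugt2b37 (log2 change 1.63 ± 0.46, adjusted p = 0.0473), did not hold in 11 of 17 alternatives (adjusted p = 0.0195 to 0.22 in all), including those without rUUO 2 or 4 or sham 1, 2 or 4 (adjusted p = 0.0678 to 0.175).

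Other large falls were outside the lists. Lpar3, a receptor for lysophosphatidic acid, had 15.2, 14.8 and 10.97 FPKM in sham and 3.53, 3.23 and 4.21 FPKM in rUUO (log2 change -1.65 ± 0.31, adjusted p = 0.00373). Clec2h, a lectin-like surface protein, had 53.01, 40.03 and 47.3 FPKM in sham and 19.1, 21.9 and 6.49 FPKM in rUUO (log2 change -1.65 ± 0.36, adjusted p = 0.0103). The noncoding RNA Halr1 had 8.23, 18.7 and 7.88 FPKM in sham and 0.66, 0.93 and 2.01 FPKM in rUUO (log2 change -2.46 ± 0.49, adjusted p = 0.006). Tmem42, a membrane protein, had 2.54, 3.81 and 4.03 FPKM in sham and 0.58, 0.55 and 0.4 FPKM in rUUO (log2 change -1.55 ± 0.32, adjusted p = 0.00745), and unlike the other 3 genes its 4 UUO samples, at 1.88, 2.11, 3.58 and 1.88 FPKM, all lay above the rUUO samples. The call of Halr1 was lost with a pseudocount of 0.1 or no filter on low values (adjusted p of up to 0.0647), that of Clec2h with no filter (adjusted p = 0.069) and that of Tmem42 in the fit of all 4 populations (adjusted p = 0.091). Lpl, lipoprotein lipase, changed by -1.59 ± 0.42 (adjusted p = 0.0325) and did not pass in 6 of 17 alternatives (adjusted p = 0.00399 to 0.153 in all), including those without rUUO 2 or 3 or sham 1 or 4 (adjusted p = 0.0523 to 0.131). Gchfr, the regulator of GTP cyclohydrolase, changed by -1.64 ± 0.43 (adjusted p = 0.0335) and did not pass in 7 of 17 alternatives (adjusted p = 0.0109 to 0.153 in all), including those without rUUO 3 or 4 or sham 1, 2 or 4 (adjusted p = 0.0571 to 0.131).

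Of 40 fatty acid oxidation and peroxisome genes, 2 fell and 38 did not pass, beside 0.946% of all tested genes called lower, and the median change was -0.34. Acsl1, which activates long-chain fatty acids, had 51.2, 58.8 and 49.9 FPKM in sham and 25.2, 35.5 and 15.9 FPKM in rUUO (log2 change -1.097 ± 0.30, adjusted p = 0.0378) and lost its call in 8 of 17 alternatives (adjusted p = 0.0148 to 0.142 in all), including those without rUUO 2 or 4 or sham 1, 2 or 4 (adjusted p = 0.0825 to 0.142). Acad11, an acyl-CoA dehydrogenase, had 24.5, 20.5 and 18.9 FPKM in sham and 8.97, 12.7 and 9.06 FPKM in rUUO (log2 change -0.998 ± 0.24, adjusted p = 0.0187) and lost it in 5 of 17 alternatives (adjusted p = 0.0111 to 0.0871 in all), including those without rUUO 2 or 4 or sham 1 (adjusted p = 0.0623 to 0.0833). The most abundant members, Acsm2 (log2 change -0.68 ± 0.20, adjusted p = 0.0555) and Slc27a2 (log2 change -0.76 ± 0.25, adjusted p = 0.081), did not pass although their groups did not overlap. The count depended on the scaling, with 4 falls after quantile normalization and 8 after rescaling without mitochondrial genes. Of 42 nuclear-encoded respiratory chain genes 1 fell, Ndufs1 (log2 change -0.74 ± 0.21, adjusted p = 0.0445), which did not pass in 11 of 17 alternatives (adjusted p = 0.0179 to 0.173 in all), including those without rUUO 2, 3 or 4 or sham 1, 2 or 4 (adjusted p = 0.0576 to 0.129), and the median change was -0.15. Atp5b, a subunit of ATP synthase, had 1864, 1899.8 and 1631 FPKM in sham and 1731, 1397 and 1287 FPKM in rUUO and did not pass. Of 17 NRF2 antioxidant genes 2 rose, 2 fell and 13 did not pass, beside 6.52% of all tested genes called higher and 0.946% lower. Akr1b8, an aldo-keto reductase, had 0.46, 0.16 and 0 FPKM in sham and 4.09, 3.13 and 3.38 FPKM in rUUO (log2 change 1.92 ± 0.35, adjusted p = 0.00337), and lost its call in the fit of all 4 populations (adjusted p = 0.0629). Gstm1 had 85.4, 88.8 and 66.9 FPKM in sham and 147, 148 and 183 FPKM in rUUO, a call lost in 9 of 17 alternatives (adjusted p = 0.0135 to 0.16 in all), including those without rUUO 2, 3 or 4 or sham 1, 2 or 4 (adjusted p = 0.0683 to 0.136). Besides Gpx3, Me1 was lower, and lost its call in 8 of 17 alternatives (adjusted p = 0.00976 to 0.244 in all), including those without rUUO 2 or 3 or sham 1, 2 or 4 (adjusted p = 0.0629 to 0.103).

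Of 27 transcription factors of the proximal tubule and of nephron development, 5 rose, 1 fell and 21 did not pass. Of all tested genes 6.52% were called higher and 0.946% lower. Elf3, an epithelial factor linked to inflammation, had 0.55, 0.14 and 0.35 FPKM in sham and 7.38, 6.74 and 5.83 FPKM in rUUO (log2 change 2.51 ± 0.26, adjusted p = 2.12e-05). Bhlhe40 had 9.31, 13.4 and 8.67 FPKM in sham and 23.6, 29.6 and 49.2 FPKM in rUUO (log2 change 1.57 ± 0.28, adjusted p = 0.00244). Both rises held in all 17 alternatives. Sox4 rose by 1.42 ± 0.34 (adjusted p = 0.0193), a call lost in 7 of 17 alternatives (adjusted p = 0.00266 to 0.0736 in all), including those without rUUO 2 or 4 or sham 1, 2 or 4 (adjusted p = 0.053 to 0.0608). Pax2 and Pax8, factors of the developing kidney, changed by 1.09 ± 0.29 and 1.01 ± 0.28 (adjusted p = 0.0362 and 0.0425). Pax2 did not pass in 9 of 17 alternatives (adjusted p = 0.022 to 0.145 in all), including those without rUUO 2 or 4 or sham 1 or 4 (adjusted p = 0.0801 to 0.145), nor Pax8 in 11 of 17 alternatives (adjusted p = 0.0175 to 0.144 in all), including those without rUUO 2 or 4 or sham 1 or 4 or UUO 2 (adjusted p = 0.0503 to 0.144). Hnf4a, a master regulator of the differentiated proximal tubule, had 78.3, 71.9 and 59.1 FPKM in sham and 43.1, 34.98 and 37.2 FPKM in rUUO (log2 change -0.84 ± 0.24, adjusted p = 0.0445), with every rUUO sample below every sham sample. Its call was lost in 12 of 17 alternatives (adjusted p = 0.00976 to 0.262 in all), including those without rUUO 2, 3 or 4 or sham 1, 2 or 4 or UUO 2 (adjusted p = 0.0538 to 0.146).

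The change in PT cells was then set against that in the other 3 sorted populations, by testing PT rUUO minus sham minus the mean of the same difference in macrophages, endothelial cells and stromal cells. The fit took all samples as independent, although the populations may share mice. The difference between the PT change and that mean passed for 779 of the 11416 genes (6.82%), was positive for 645 (5.65%) and negative for 134 (1.17%), and its median over all genes was 0.13. After quantile normalization it passed for 1239 genes, and the negative ones were 78 without sham replicate 1, 71 without sham replicate 2 and 81 without rUUO replicate 3. Clu had 10.7 ± 5.43 and 31.5 ± 14.1 FPKM in macrophages, 82.01 ± 17.1 and 141 ± 28.7 FPKM in endothelial cells, and 65.9 ± 7.23 and 93.5 ± 19.1 FPKM in stromal cells (sham and rUUO in turn, mean ± SD, n = 3 for macrophage rUUO and 4 otherwise), and its rise in PT cells exceeded theirs by 3.43 ± 0.35 (SE) (adjusted p = 3.65e-09, limma). Havcr1 exceeded it by 3.47 ± 0.67 (SE) (adjusted p = 4.56e-04) and Vcam1 by 1.502 ± 0.35 (SE) (adjusted p = 0.00388). The mean of Lcn2 was higher after reversal in every population, with 1.32 ± 1.15 and 18 ± 18.7 FPKM in macrophages, 5.11 ± 6.25 and 39.8 ± 16.4 FPKM in endothelial cells, and 6.29 ± 4.61 and 20.1 ± 11.9 FPKM in stromal cells. Its change was larger in PT cells by 2.34 ± 0.73 (SE) (adjusted p = 0.0402, and 0.0067 to 0.142 over the alternatives). This call was lost without rUUO 3 or 4 or sham 2 or 4 (adjusted p = 0.0853 to 0.142) and with the replicate block (adjusted p = 0.0541). For Lrp2 and Slc34a1 the difference did not pass (adjusted p = 0.787 and 0.303), although that of Slc34a1 passed after quantile normalization (1.56, adjusted p = 0.017). The largest positive differences were Tmem213 (5.49 ± 0.64 (SE)), Spink8 (5.42 ± 0.60 (SE)) and Defb1 (5.22 ± 0.53 (SE)). Defb1, an epithelial defensin, rose from 14.5, 11.3 and 14.3 to 126, 120 and 100.4 FPKM in PT cells, while it had 23.5 ± 16.1 and 6.64 ± 3.05 FPKM in macrophages, 103 ± 78.4 and 25.3 ± 10.1 FPKM in endothelial cells, and 89.04 ± 12.9 and 8.97 ± 5.56 FPKM in stromal cells. Tmem213 and Defb1 were also members of the intercalated cell list above. The largest negative differences were Phyhd1 (-3.53 ± 0.61 (SE)), Halr1 (-3.24 ± 0.70 (SE)) and Ugt1a10 (-2.53 ± 0.45 (SE)), the last of which was listed at 0 in all sham and rUUO samples of the other populations, so its difference is the PT change itself and no comparison of changes.

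**Figure D5:**
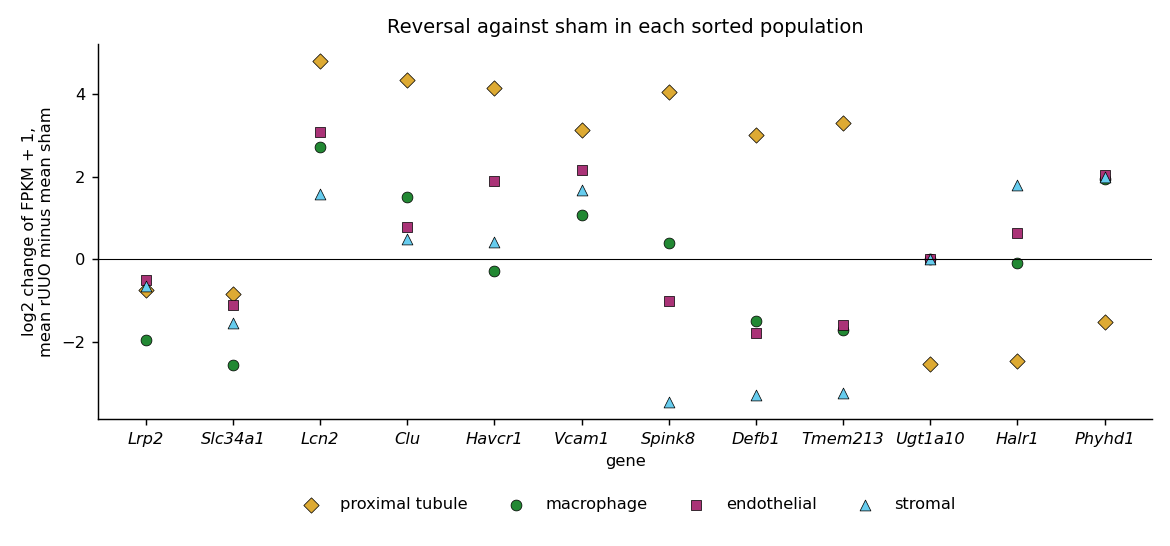
The mean log2 change from sham to rUUO is plotted for 12 genes in each of the 4 sorted populations. The points of Lrp2 and Slc34a1 lie below 0 in all 4 populations and those of Lcn2, Clu and Vcam1 above 0, while Spink8, Defb1 and Tmem213 lie above 3 in PT cells and under 1 in the others.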

How the data were processed

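PT cells were sorted by the authors together with macrophages, endothelial and stromal cells, and their RNA was amplified with an Ovation kit. The authors deposited 1 table of FPKM values for 53465 genes. The submitters' processing notes name FastQC, Bowtie2, RSEM and DESeq2 and the build mm10, without versions. Of its 46 value columns, 44 matched a sample of the labels by name, and 2 that share a name were not used. FPKM is scaled within each sample, so a large change in abundant transcripts shifts all others, and other scalings were therefore tried. For the 11416 genes whose PT samples averaged 1 FPKM or more, log2(FPKM + 1) was fitted with limma-trend over all 10 PT samples, which share 1 estimate of the spread, and p-values were adjusted after Benjamini and Hochberg and called under 0.05. The change in PT cells was set against that in the other populations by a contrast in a fit of all 44 samples. The fit was tested on simulated data.

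Genes were named by a rule: the 4 genes of the label and the cell type markers, the 15 largest rises and 10 largest falls with no overlap between groups, the 5 largest rises and falls in FPKM, up to 5 called and the 2 most abundant members of each list, and the 3 largest differences from the other populations in each direction. Some members that did not pass are counted without their values, and a few genes that met the rule and 1 sequence are not reported here. The genes, lists and tests were chosen with earlier results of these data known, and the intercalated, principal cell and thick limb lists and the motifs after the values were seen. Values of genes with close copies (C4b, Ugt1a10, Ugt2b37, Cyp2d12, H2-K1) are uncertain, since the counting can split their reads. The labels do not say that a replicate number marks a shared animal or batch. Deviations from the group means of same-numbered sham and rUUO samples had a correlation of 0.0228 for number 2 and 0.0682 for number 4, and over 25 same-numbered pairs of a PT sample and a sample of another population under the same condition it was -0.0697 to 0.0661. Such correlations cannot show that the populations came from different mice. As the labels give no pairing, the numbers were not taken to pair the samples. The contrast with the other populations thus treats all 44 samples as independent, although some may come from the same mouse. Alternatives were another pseudocount, other filters, scalings and sample sets, a replicate block and no intensity trend. Each PT sham and rUUO replicate was also left out in turn, and of the UUO samples only PT UUO replicate 2. R 4.3.3, limma 3.58.1, Python 3.11.15, pandas 2.3.3, numpy 2.4.6 and matplotlib 3.10.9 were used.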

Additional observations from a re-analysis of the deposited data

Results flagged for a closer look

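In the 4 PT UUO samples, the lowest value of Halr1 stood apart from the others (2.26, 2.19, 0 and 2.89 FPKM), with a gap of 0.854 of the group's range on the log2(FPKM + 1) scale. The highest value of Tmem42 did so too (1.88, 2.11, 3.58 and 1.88 FPKM), with a gap of 0.834. These were 2 of 36 groups tested by Dixon's criterion, which chance meets in about 1 in 20 groups.

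The change from sham to rUUO differed between PT cells and the mean of the other 3 populations, by a limma test of the difference itself, for 9 named genes. On the log2 scale the difference was 5.49 for Tmem213, 5.42 for Spink8, 5.22 for Defb1, 3.47 for Havcr1, 3.43 for Clu, 2.34 for Lcn2 and 1.5 for Vcam1. It was -3.53 for Phyhd1 and -3.24 for Halr1. Phyhd1 did not pass in PT cells alone (log2 change -1.53 ± 0.51, adjusted p = 0.0866), where it had 23.7, 23.7 and 13.1 FPKM in sham and 11.4, 10.8 and 1.45 FPKM in rUUO. Its means in the other populations were 1.32 to 3.12 FPKM in sham and 7.64 to 15.8 FPKM in rUUO. The Halr1 difference did not pass with a pseudocount of 0.1 (adjusted p = 0.0501), and that of Lcn2 had an adjusted p of up to 0.142 over the alternatives.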

How the results depend on the processing

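Beside the 852 genes called for rUUO against sham in PT cells (744 higher and 108 lower), 484 were called with no filter on low values (439 higher and 45 lower), where more genes were tested. The lower calls were 222 with scaling without mitochondrial genes, 232 after quantile normalization, 51 without the intensity trend and 60 with the replicate block, which made 579 calls in all. Leaving out 1 sham or rUUO replicate gave 556 to 693 calls, of which 475 to 642 were higher and 36 to 81 lower. Without UUO replicate 2 there were 817 calls, 717 higher and 100 lower. The lowest counts of all and of higher calls came without sham replicate 4, and of lower calls without sham replicate 1. The contrast with the other populations passed for 1239 genes after quantile normalization, 483 of them negative, and for 629 with the replicate block, under which that of Lcn2 did not pass (2.16, adjusted p = 0.0541). With 1 replicate left out, 558 to 670 genes passed it, 71 to 134 of them negative. Apart from the number of genes or samples in a fit, the cause was not tested. The median change of all genes was -0.0673 after quantile normalization. Among named genes, 2 that passed in no setting changed sign: Fxyd2, at 0.1766 after quantile normalization, and Ccng1, at -0.0764 without rUUO replicate 4 and up to 0.3278 with another replicate left out. No gene named for passing the test changed sign under these alternatives. The files hold no counts, so the counting error of low values is unknown, and with 3 samples a group a difference that missed the threshold is not shown to be absent.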
